A study of Rattus norvegicus with 16 samples.

Results

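The cytosolic ribosomal protein genes were examined on 16 single-colour short oligonucleotide arrays of rat skeletal muscle. Members were the probe sets assigned to a single gene named Rplp0, Rplp1, Rplp2 or Rpsa, or named Rpl or Rps with a number and at most 1 trailing letter (pseudogenes and ribosomal protein S6 kinases left out). The rule found 58 of 8799 probe sets, which represent 39 of 4737 genes: 27 of the large subunit and 12 of the small subunit. A further 39 probe sets carry several gene symbols of which at least 1 is a ribosomal protein, and they were not used. For 16 genes with several probe sets, the brightest over all arrays stood for the gene, and differences of the others are given further on. All 39 genes entered the tests, and 37 of them were above the floor on all 16 arrays; Rpl5 was above it on 14 arrays and Rps24 on 15.

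The arrays form 3 groups. EOM is extraocular muscle, which turns the eyeball (4 arrays, numbered 1 to 4, with no collection time given). TA_6h is skeletal muscle labelled TA and collected at 6 hours (8 arrays of 4 numbered samples), and TA_1h is the same muscle collected at 1 hour (4 arrays of 2 numbered samples); what the hours are counted from is not stated. No strain, age, sex or treatment is given for any group, and nothing says that the numbers are separate animals, so p-values reflect sample-to-sample spread that could be partly or wholly technical.

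Cytosolic ribosomes pair a small subunit, which reads the messenger RNA, with a large subunit, which forms the peptide bond and passes the growing chain through an exit tunnel. Ribosomal proteins are made in matched amounts, and most of their messages start with an uninterrupted stretch of pyrimidines (the 5′ terminal oligopyrimidine motif) through which the mTOR pathway adjusts their translation. Striated muscle is known for exchanging some translation proteins for muscle forms: Rpl3l replaces Rpl3 in mature muscle ribosomes, and Eef1a2 replaces Eef1a1 as the factor that delivers aminoacyl-tRNA.

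The start region is shown for the 7 genes that were higher in EOM than in both TA groups, for the paralogue pair Rpl3 and Rpl3l, and for Rps23, which had the longest pyrimidine run. Each line runs from 40 bases before the RefSeq transcript start to 20 bases from it (GRCr8 build, strand of the gene), and capitals mark the longest run of C and T within 20 bases on either side of the start.
Rpl41 (chr7:1563478-1563537, minus strand): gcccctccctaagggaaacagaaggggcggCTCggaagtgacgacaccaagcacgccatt
Rps10 (chr20:5700725-5700784, minus strand): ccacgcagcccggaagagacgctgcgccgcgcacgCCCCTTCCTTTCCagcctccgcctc
Rpl26 (chr10:54109652-54109711, plus strand): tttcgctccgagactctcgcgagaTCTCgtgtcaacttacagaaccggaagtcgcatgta
Rpl39 (chrX:121195877-121195936, minus strand): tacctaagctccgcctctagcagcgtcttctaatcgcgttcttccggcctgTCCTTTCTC
Rps3a (chr2:173827023-173827082, minus strand): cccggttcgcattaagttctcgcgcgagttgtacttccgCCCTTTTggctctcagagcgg
Rpl14 (chr8:129163580-129163639, plus strand): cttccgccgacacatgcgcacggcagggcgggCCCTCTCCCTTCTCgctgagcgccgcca
Rpl13a (chr1:104748894-104748953, minus strand): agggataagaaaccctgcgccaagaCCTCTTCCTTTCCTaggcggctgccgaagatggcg
Rpl3 (chr7:113507971-113508030, minus strand): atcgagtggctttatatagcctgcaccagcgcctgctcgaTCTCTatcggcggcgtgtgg
Rpl3l (chr10:14258406-14258465, plus strand): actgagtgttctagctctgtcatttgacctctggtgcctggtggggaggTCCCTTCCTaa
Rps23 (chr2:23814477-23814536, plus strand): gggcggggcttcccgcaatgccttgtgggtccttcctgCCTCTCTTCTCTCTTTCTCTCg

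RefSeq start regions matched 36 of the 39 genes, 1 of them by symbol alone. The start used was not always that of the gene record. In genome coordinates the difference was -119 bases for Rps10, -125 for Rpl3 and -62 for Rpl13a, and 0 for the other printed genes. It was 4663 for Rpl36, 4555 for Rpl19 and 3529 for Rpl22. The run counts depend on the start used. A run of at least 8 C or T letters on the gene's own strand was found within 20 bases of the start in 24 of these 36 genes (66.7%), against 15.5% of 27457 rat genes in the same windows. Runs of A and G, the same letters read on the other strand, reached that length in 1 of the 36 (2.78%) and in 17.1% of all genes. Of the printed regions, Rps23 (21 letters), Rpl14 and Rpl13a (14 each), Rps10 (13), Rpl39 and Rpl3l (9 each) reached 8 letters. Rps3a (7), Rpl3 (5), Rpl26 (4) and Rpl41 (3) did not, which says only that the letters are not in this window. Among matched genes, 8 of the 11 that were higher in EOM than in TA_6h had such a run (72.7%), as did 16 of the other 25 (64%). These counts describe letters and were not tested. A counted run need not begin at the transcript start, so they are not counts of 5′ terminal oligopyrimidine motifs. Of the printed runs that reached 8 letters, those of Rps23, Rpl14 and Rps10 crossed the start. The Rpl13a run began at base -15 and ended before the start, and those of Rpl39 and Rpl3l began at bases 12 and 10 of the transcript.

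Against TA_6h, 11 of the 39 ribosomal protein genes were higher in EOM and 2 were lower, by limma with an adjusted p under 0.05. The share that was higher, 28.2%, lay close to the 22.1% of all 4317 genes tested that were higher. The share that was lower was 5.13%, where 26.1% of all genes were lower. The difference was above 0 for 32 of the 39 genes, with a median log2 difference of 0.26 against -0.10 over all genes. Among genes above the floor on all arrays, 10 of 37 ribosomal protein genes were higher and 2 lower (median 0.25), while 26.5% of 2530 genes were higher and 20.4% lower (median 0.08).

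Against TA_1h, 8 of 39 were higher and 2 lower, with 28 above 0 and a median log2 difference of 0.24. Over all genes, 18% were higher and 19.7% lower, with a median of -0.09. This comparison shares its EOM arrays with the one against TA_6h, so the values are given side by side and are not 2 independent results. Without TA_1h sample 1 the members' median was 0.18 (-0.03 over all genes), and without TA_1h sample 2 it was 0.23 (-0.13 over all genes). Each of these fits leaves 1 TA_1h sample, so its calls rest on the spread of the other groups. Large-subunit genes (8 of 27 higher and 1 lower, median 0.24 against TA_6h) and small-subunit genes (3 of 12 higher and 1 lower, median 0.40) were on the same side of 0.

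**Figure D1:**
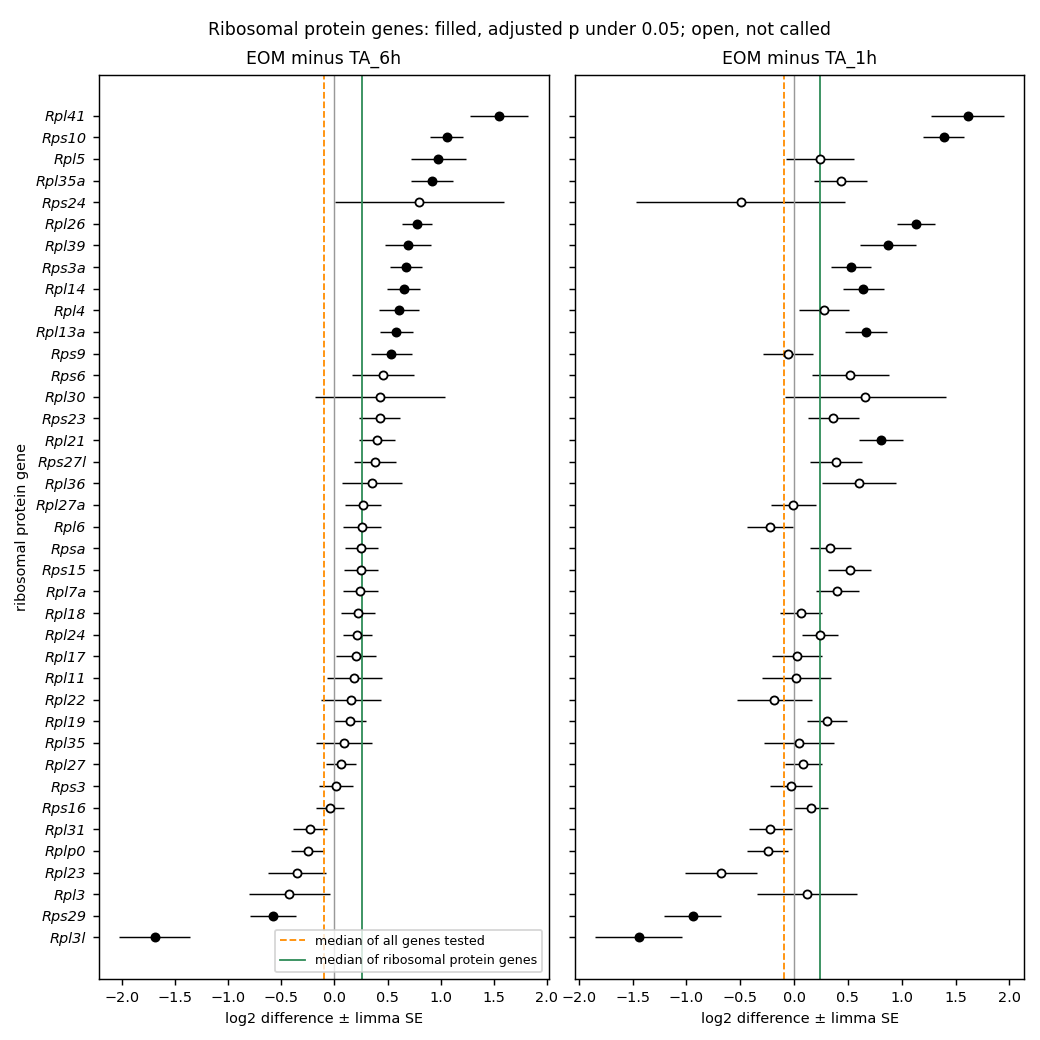
Log2 difference of each of the 39 ribosomal protein genes (rows), EOM minus TA_6h on the left and EOM minus TA_1h on the right, with bars of 1 limma standard error; filled points have an adjusted p under 0.05. Most points lie right of 0, the green line (members' median, 0.26 and 0.24) lies right of the dashed line (median of all genes tested, -0.10 and -0.09), and Rpl3l lies farthest left in both panels.

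The counts depend on how arrays are put on a common scale. With arrays scaled to the same median of the values above the floor, the median over all genes moved to -0.47 and that of the 39 members to -0.21. Of the members 2 were then higher, Rpl41 and Rps10, and 6 were lower, while 12.6% of all genes were higher and 41.4% lower. With quantile normalization 19 members were higher and 1 lower, and 21.9% and 25.7% of all genes. The members' median stayed above that of all genes by 0.17 to 0.58 against TA_6h over 25 settings, and by 0.085 to 0.48 against TA_1h. The EOM columns hold values below 0 (24.29% of them) and the TA columns hold none, so muscle and the way the signals were summarised cannot be told apart. Of the members' EOM values, 1 was below 0.

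Rpl41, a very short basic protein at the interface between the subunits, had the largest positive difference. Its intensity was 4101, 5071, 4031 and 5071 on the 4 EOM arrays, 840.2 to 2404 (median 1659.9) on the TA_6h arrays, and 1317, 904, 1457 and 2807 on the TA_1h arrays. All EOM arrays were above all TA arrays, and the highest TA_1h array was 2b. The log2 difference was 1.55 ± 0.27 (limma SE, adjusted p = 0.00123) against TA_6h, or 2.93-fold, and 1.61 ± 0.34 (limma, adjusted p = 0.00426) against TA_1h, or 3.06-fold. Against TA_6h it was called in all 26 settings computed, the reported one among them. Against TA_1h the call was lost without TA_1h sample 1 (1.17, limma adjusted p = 0.0612).

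Rps10, a protein of the small-subunit head that is ubiquitylated on stalled ribosomes, was the most precisely separated member of the small subunit. EOM arrays read 10169, 8994, 10813 and 8999.7, TA_6h arrays 3693 to 5937 (median 4833), and TA_1h arrays 3797, 3708, 5619.7 and 2391. Every EOM array lay above every TA array. On the log2 scale EOM exceeded TA_6h by 1.06 ± 0.16 (limma, adjusted p = 0.000411) and TA_1h by 1.39 ± 0.19 (limma, adjusted p = 0.000384). It was called in all 26 settings in both comparisons.

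Rpl26 sits near the mouth of the exit tunnel, and both of its probe sets were higher in EOM. The brightest read 16198, 16556, 15469 and 15935 in EOM, 8070.4 to 10652 (median 9450) in TA_6h, and 8423, 7568, 9241 and 4894 in TA_1h, with no overlap between EOM and TA. On the log2 scale EOM exceeded TA by 0.78 ± 0.14 (limma, adjusted p = 0.00149) and 1.13 ± 0.17 (limma, adjusted p = 0.000776) against TA_6h and TA_1h. The other probe set differed by 1.77 ± 0.27 (limma, adjusted p = 0.000534) and 1.60 ± 0.33 (limma, adjusted p = 0.00435).

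Rpl39, a small protein that lines the exit tunnel, read 13616, 13480, 13053 and 13709.5 in EOM, 4462 to 10914 (median 9359.9) in TA_6h and 8418, 5677, 9003 and 6804 in TA_1h. The EOM arrays lay within a narrow band above all TA arrays, and the 4 TA_6h arrays of samples 3 and 4 were the highest of the TA_6h arrays. On the log2 scale the difference was 0.69 ± 0.21 (limma, adjusted p = 0.0233) against TA_6h and 0.87 ± 0.26 (limma, adjusted p = 0.0254) against TA_1h. Both calls were lost when single samples were left out: EOM 1 or EOM 4 for TA_6h, and either TA_1h sample for TA_1h.

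Rps3a, on the platform of the small subunit, read 15731, 13633, 14676 and 14379.7 in EOM, 7367 to 10909.7 (median 9683) in TA_6h and 9765, 9990.1, 9992 and 10705 in TA_1h. EOM was above both TA groups without overlap. Its log2 difference was 0.67 ± 0.15 (limma, adjusted p = 0.00482) against TA_6h and 0.53 ± 0.19 (limma, adjusted p = 0.0473) against TA_1h. The latter was called in 14 of 26 settings, and was lost on leaving out any 1 EOM sample, either TA_1h sample, or TA_6h sample 2 or 3.

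Rpl14, of the large subunit, read 3552, 3216, 4205 and 3396 in EOM, 2049 to 2691 (median 2233) in TA_6h and 2196, 2274, 2096 and 2611 in TA_1h, and the groups did not overlap. It differed by 0.65 ± 0.15 (limma, adjusted p = 0.00608) and 0.64 ± 0.19 (limma, adjusted p = 0.0217) on the log2 scale. Rpl13a, which can leave the ribosome and repress translation of inflammatory messages, read 9402, 7371, 9542 and 7813 in EOM, 4649 to 6592 (median 5819) in TA_6h and 5112, 5938, 5818 and 4578 in TA_1h. Its brightest probe set showed no overlap and differed by 0.58 ± 0.16 (limma, adjusted p = 0.0124) and 0.67 ± 0.19 (limma, adjusted p = 0.0211). The other Rpl13a probe set overlapped between the groups, with a log2 difference of 0.03 against TA_6h and -0.02 against TA_1h. For both genes the call against TA_1h was lost without EOM sample 3 or without either TA_1h sample, and for Rpl13a also without EOM sample 1.

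**Figure D2:**
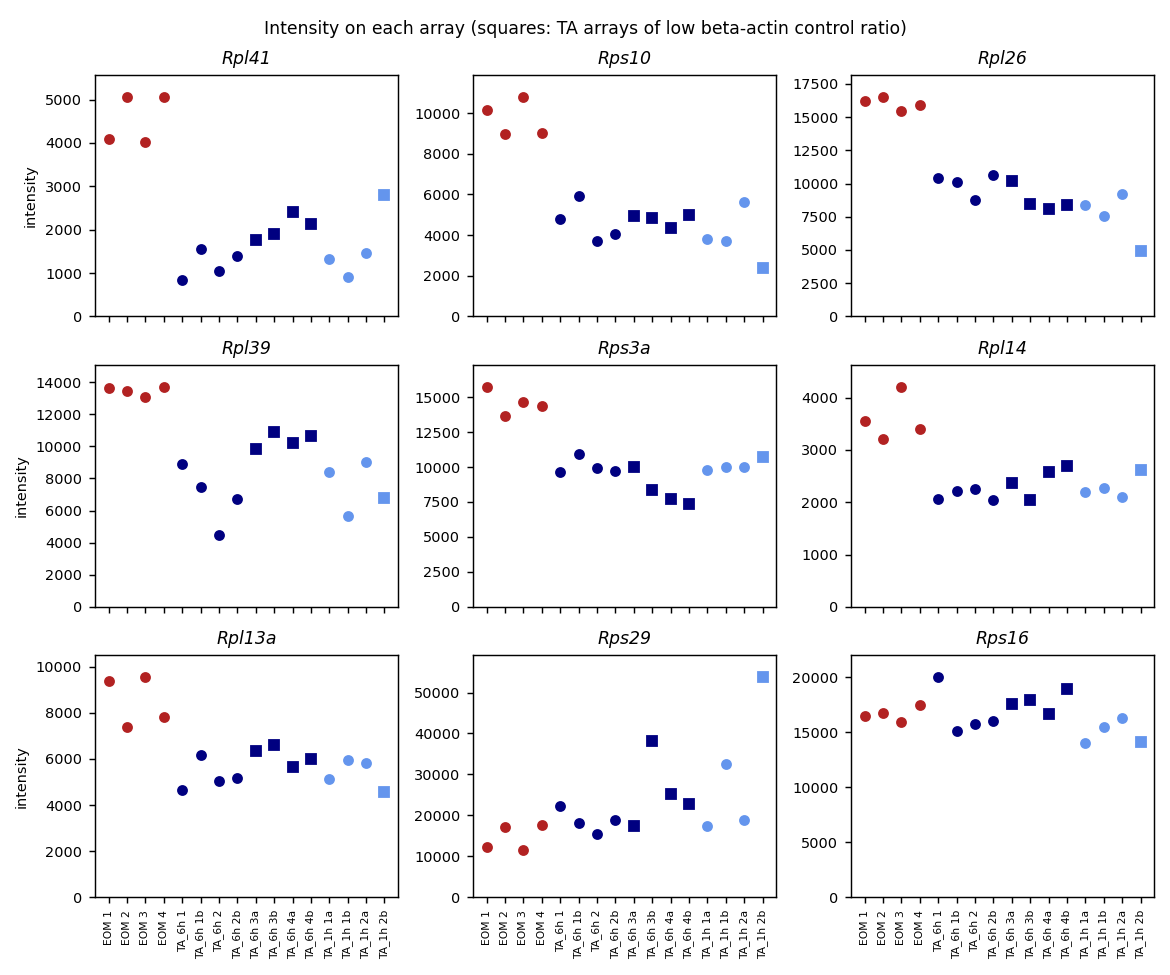
Intensity of 9 ribosomal protein genes (brightest probe set, linear axis from 0) on each array; red is EOM, dark blue TA_6h, light blue TA_1h, and squares are the 5 TA arrays with a low beta-actin control ratio. In the first 7 panels every EOM point is above every TA point; in Rps29 the EOM points are low but overlap TA, and in Rps16 the groups overlap.

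Of the genes called against TA_6h but not against TA_1h, 4 were higher in EOM. Rpl35a, mutated in some families with Diamond-Blackfan anaemia, read 8584, 6507, 8045 and 6832 in EOM, 2517 to 5577 (median 4172) in TA_6h and 4749.8, 4536, 4907 and 8789.7 in TA_1h. EOM and TA_6h did not overlap, but TA_1h array 2b exceeded all EOM arrays. Its log2 difference was 0.92 ± 0.20 (limma, adjusted p = 0.00382) against TA_6h and 0.43 ± 0.24 (limma, adjusted p = 0.192) against TA_1h.

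Rpl5, which with Rpl11 and 5S RNA forms a particle that binds Mdm2, was dim. It read 176, 236, 142 and 164 in EOM, 13.8 to 129 (median 104) in TA_6h and 130.3, 167, 95.8 and 238 in TA_1h, and the TA_6h arrays 3b and 4b were under the floor of 56.5. With values set to that floor the log2 difference from TA_6h was 0.98 ± 0.26 (limma, adjusted p = 0.0112), and that from TA_1h was 0.24 ± 0.32 (limma, adjusted p = 0.587). Without the TA arrays of low control ratio described below, the difference from TA_6h was 0.56 (limma, adjusted p = 0.108).

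Rpl4, whose loop reaches into the exit tunnel, read 8429.5, 6772, 8063 and 7193 in EOM, 3373 to 6662 (median 5114) in TA_6h and 7789, 5908, 7639 and 4328 in TA_1h. EOM was just above TA_6h, with a gap smaller than the spread within either group, and it overlapped TA_1h. Its log2 difference was 0.61 ± 0.19 (limma, adjusted p = 0.0235) and 0.28 ± 0.23 (limma, adjusted p = 0.376); the first was lost without EOM sample 1 or 3.

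Rps9, a small-subunit protein tied to decoding accuracy, read 11625, 12907, 11884 and 12655 in EOM, 5966 to 13131 (median 8089.5) in TA_6h and 13559, 13397, 14110.1 and 10308 in TA_1h. TA_6h array 2b was above all EOM arrays, and 3 of the 4 TA_1h arrays were too. The log2 difference was 0.53 ± 0.19 (limma, adjusted p = 0.0441) against TA_6h and -0.06 ± 0.24 (limma, adjusted p = 0.876) against TA_1h. The TA_6h call held in 13 of 26 settings; it was lost on leaving out any EOM sample, either TA_1h sample, or TA_6h sample 3 or 4.

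Rpl21, of the large subunit, was the only member called against TA_1h alone. It read 12437, 8756, 11456 and 11247 in EOM, 6700 to 9518 (median 8231) in TA_6h and 6485, 4965, 6635 and 6960.3 in TA_1h, so that EOM overlapped TA_6h and not TA_1h. Rpl21 differed on the log2 scale by 0.40 ± 0.17 (limma, adjusted p = 0.0734) against TA_6h and 0.81 ± 0.21 (limma, adjusted p = 0.0118) against TA_1h. The latter was lost without TA_1h sample 1.

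The 2 members that were lower in EOM were Rpl3l and Rps29. The brightest Rpl3l probe set read 3377, 3702, 4092 and 3787 in EOM, 6235 to 21370 (median 12077) in TA_6h and 7867, 7996, 8949 and 18788 in TA_1h. Every EOM array was below every TA array, and the 5 highest readings were the 5 TA arrays of low control ratio. Rpl3l differed on the log2 scale by -1.69 ± 0.33 (limma, adjusted p = 0.00225) against TA_6h and -1.44 ± 0.41 (limma, adjusted p = 0.019) against TA_1h. Without those 5 arrays the differences were -1.10 and -1.18 (limma, adjusted p = 0.00154 and 0.00101). The call against TA_1h was lost without TA_1h sample 2 (-1.09, limma adjusted p = 0.168).

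The other Rpl3l probe set did not follow. It read 6164, 6585, 7880.3 and 9012 in EOM, 4512 to 10789 (median 6673) in TA_6h and 5185, 11129, 8486 and 8031 in TA_1h. The groups overlapped fully, with a log2 difference of 0.16 ± 0.22 (limma, adjusted p = 0.567) against TA_6h and -0.11 ± 0.27 (limma, adjusted p = 0.782) against TA_1h. Which of the probe sets represents the Rpl3l message was not tested, since probe positions were not used.

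Rpl3, the widely expressed paralogue next to the peptidyl transferase centre, also had probe sets that disagreed. Its brightest probe set read 5230.3, 5034, 4960.3 and 5192 in EOM, 3507 to 13219.5 (median 7384) in TA_6h and 3231, 3880.2, 4828 and 8096 in TA_1h. The 4 TA_6h arrays of samples 3 and 4 were above all EOM arrays, while the other 4 lay at or below the EOM range. The log2 difference was -0.43 ± 0.38 (limma, adjusted p = 0.377) against TA_6h and 0.12 ± 0.47 (limma, adjusted p = 0.87) against TA_1h. The other probe set read 4916, 4634, 4741 and 4004 in EOM, 1797 to 2166 (median 2111) in TA_6h and 1879.9, 1354, 1735 and 1195 in TA_1h. There EOM was above every TA array, by 1.16 ± 0.14 (limma, adjusted p = 0.00012) and 1.59 ± 0.17 (limma, adjusted p = 9.92e-05) on the log2 scale. Levels of Rpl3 and Rpl3l were not set against each other, because their probe sets differ.

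Rps29, a zinc-binding protein of the small-subunit head, was lower in EOM with both probe sets. The brightest read 12158, 17061, 11588 and 17571 in EOM, 15438 to 38228 (median 20555) in TA_6h and 17437, 32552, 18936 and 53722 in TA_1h, with overlap between EOM and each TA group and the highest reading on TA_1h array 2b. Its log2 difference was -0.58 ± 0.21 (limma, adjusted p = 0.0482) against TA_6h and -0.94 ± 0.26 (limma, adjusted p = 0.0184) against TA_1h. The other probe set did not overlap and differed by -1.04 ± 0.25 (limma, adjusted p = 0.00637) and -1.15 ± 0.30 (limma, adjusted p = 0.0134). The brightest probe set was called against TA_6h in 11 of 26 settings: the call was lost without EOM sample 1 or 3, without either TA_1h sample, and without TA_6h sample 1, 3 or 4. Against TA_1h it was lost without TA_1h sample 2.

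The paired elongation factors Eef1a1 and Eef1a2 differed from TA_6h in opposite directions. Eef1a1, the widely expressed form, read 11624, 10417, 11265 and 12041 in EOM, 1533 to 3557 in TA_6h and 2113, 1624, 2037 and 897 in TA_1h, with no overlap. It was higher in EOM by 2.30 ± 0.23 (limma, adjusted p = 3.73e-05) against TA_6h and 2.84 ± 0.29 (limma, adjusted p = 5.72e-05) against TA_1h on the log2 scale, and its dimmer probe set was called higher in both. Eef1a2, the muscle and neuron form, read 10147, 8728, 10315 and 7997 in EOM, 11116 to 19922 in TA_6h and 17431, 23381, 16401 and 6451 in TA_1h; all TA_6h arrays were above EOM, but TA_1h array 2b was below it. Its log2 difference was -0.75 ± 0.24 (limma, adjusted p = 0.0255) against TA_6h and -0.64 ± 0.29 (limma, adjusted p = 0.11) against TA_1h. Of the 4 elongation genes tested, 1 was higher and 2 lower; another called gene, Eef2, was lower with its brightest probe set (-0.77, limma adjusted p = 0.00285) and higher with another (0.84, limma adjusted p = 0.0333).

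**Figure D3:**
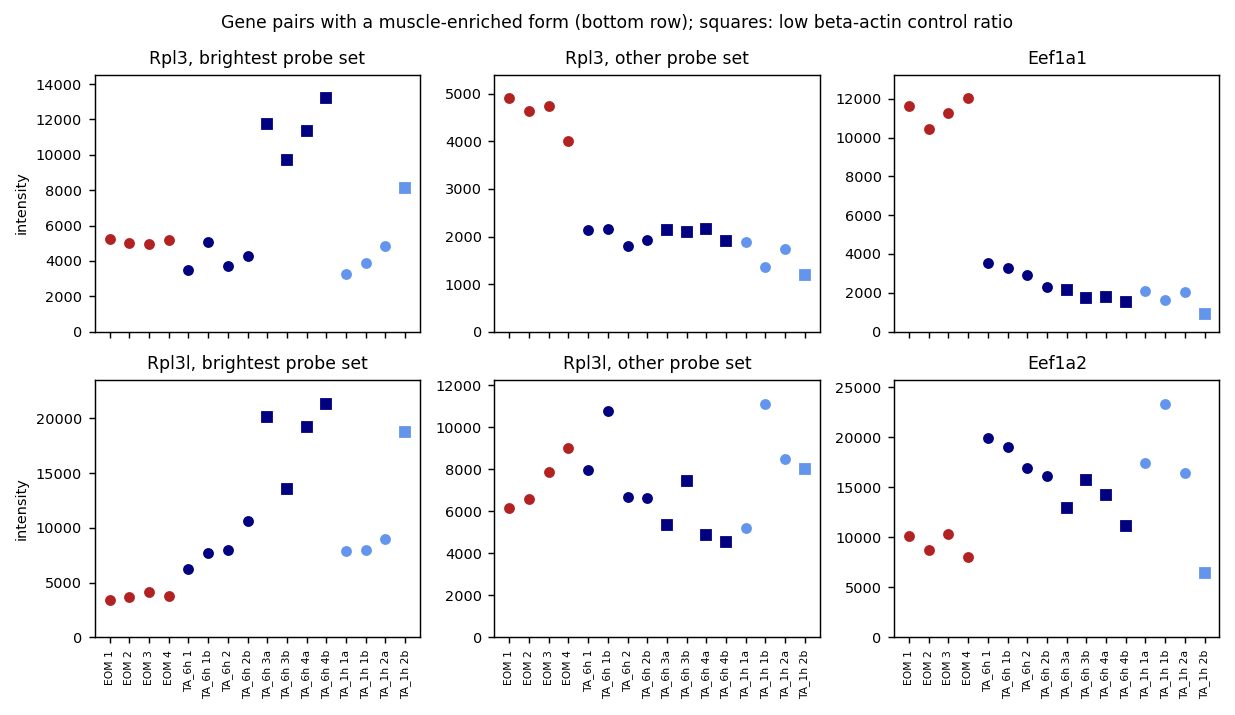
Intensity on each array (linear axis from 0) of both probe sets of Rpl3 and Rpl3l and the brightest probe set of Eef1a1 and Eef1a2; red is EOM, dark blue TA_6h, light blue TA_1h, squares the TA arrays of low beta-actin control ratio. Eef1a1 and the second Rpl3 probe set separate EOM (high) from all TA arrays, the brightest Rpl3l probe set separates EOM (low), and the other 3 panels overlap in at least 1 group.

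The 3 members with the smallest differences from TA_6h, by their brightest probe set, were Rps3, Rps16 and Rpl27. Rps16, whose tail reaches toward the P-site tRNA, read 16469.9, 16764, 15959.7 and 17466 in EOM, 15063 to 19977 (median 17069) in TA_6h and 13992, 15458, 16309 and 14073 in TA_1h. The groups overlapped, with a log2 difference of -0.04 ± 0.13 (limma, adjusted p = 0.805) against TA_6h and 0.16 ± 0.16 (limma, adjusted p = 0.474) against TA_1h. Rps16 also had the smallest spread of all members within groups (residual SD 0.06 on the log2 scale).

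Rpl27, of the large subunit, read 13622, 12352, 13549 and 12304 in EOM, 11422 to 13428 (median 12387) in TA_6h and 10689, 10966, 12076 and 15621 in TA_1h. The groups overlapped and the log2 difference was 0.06 ± 0.14 (limma, adjusted p = 0.725) and 0.09 ± 0.17 (limma, adjusted p = 0.735). Rps3, at the messenger RNA entry channel, read 13565, 13550.2, 13109.9 and 13446 in EOM, 10987 to 16284 (median 13525) in TA_6h and 12227, 15302, 12451 and 15111 in TA_1h with its brightest probe set. That probe set overlapped between groups, with a log2 difference of 0.02 ± 0.16 (limma, adjusted p = 0.941) and -0.03 ± 0.19 (limma, adjusted p = 0.924). The other Rps3 probe set, at 10378, 8135, 10468 and 9944 in EOM, 2825 to 6368 (median 5191) in TA_6h and 6893, 7100.1, 6653 and 3681 in TA_1h, was higher in EOM than in TA_6h by 1.06 ± 0.24 (limma, adjusted p = 0.00547).

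The brightest probe set of each of the remaining 22 members was called in neither comparison. Against TA_6h their log2 differences ran from -0.43 (Rpl3) to 0.80 ± 0.79 (Rps24). Rplp0, the base of the stalk that recruits elongation factors, was at -0.25 ± 0.16, and Rpsa, also known as the laminin receptor precursor, at 0.25 ± 0.16. Rps6, the target of S6 kinase, was at 0.45 ± 0.29, but its other probe set was higher by 1.01 ± 0.36 (limma, adjusted p = 0.0439). Rpl11, the partner of Rpl5, was at 0.19 ± 0.26.

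Others of the large subunit had log2 differences from TA_6h of -0.35 (Rpl23), -0.23 (Rpl31), 0.09 (Rpl35), 0.15 (Rpl19), 0.15 (Rpl22), 0.20 (Rpl17), 0.21 (Rpl24), 0.22 (Rpl18), 0.24 (Rpl7a), 0.26 (Rpl6), 0.27 (Rpl27a), 0.35 (Rpl36) and 0.43 (Rpl30). The small-subunit genes Rps15, Rps27l and Rps23 were at 0.25, 0.38 and 0.43. None of these differences passed the limma test, with standard errors of up to 0.79. A second probe set of Rpl35 was higher by 0.47 ± 0.14 (limma, adjusted p = 0.0215).

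Probe sets of the same gene often disagreed. Of 58 member probe sets, 19 were higher and 3 lower in EOM than in TA_6h (limma, adjusted p under 0.05), with a median log2 difference of 0.27. These are 32.8% and 5.17%, where 21.9% of all 7640 probe sets were higher and 25.3% lower (median -0.11). For Rpl21, Rpl23, Rpl3, Rpl3l and Rps15 the probe sets had differences of opposite sign. The brightest Rpl23 probe set was at -0.35 (limma, adjusted p = 0.306), and the other at 1.31 (limma, adjusted p = 0.000283). Rpl6 gave 0.26 (limma, adjusted p = 0.255) and 1.03 (limma, adjusted p = 0.00601). Of the 3 other Rpl21 probe sets, 1 was higher by 0.71 (limma, adjusted p = 0.0181), and the others were at 0.28 and -0.22. Second probe sets that were not called were at 0.41 (Rpl11), 0.31 (Rpsa), 0.23 (Rpl24) and 0.13 (Rpl27), and those of Rps15 at 0.07 and -0.99. No gene had probe sets called in opposite directions. Ribosomal protein genes have many processed pseudogenes of near-identical sequence, and whether a probe set also reads such copies was not tested.

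**Figure D4:**
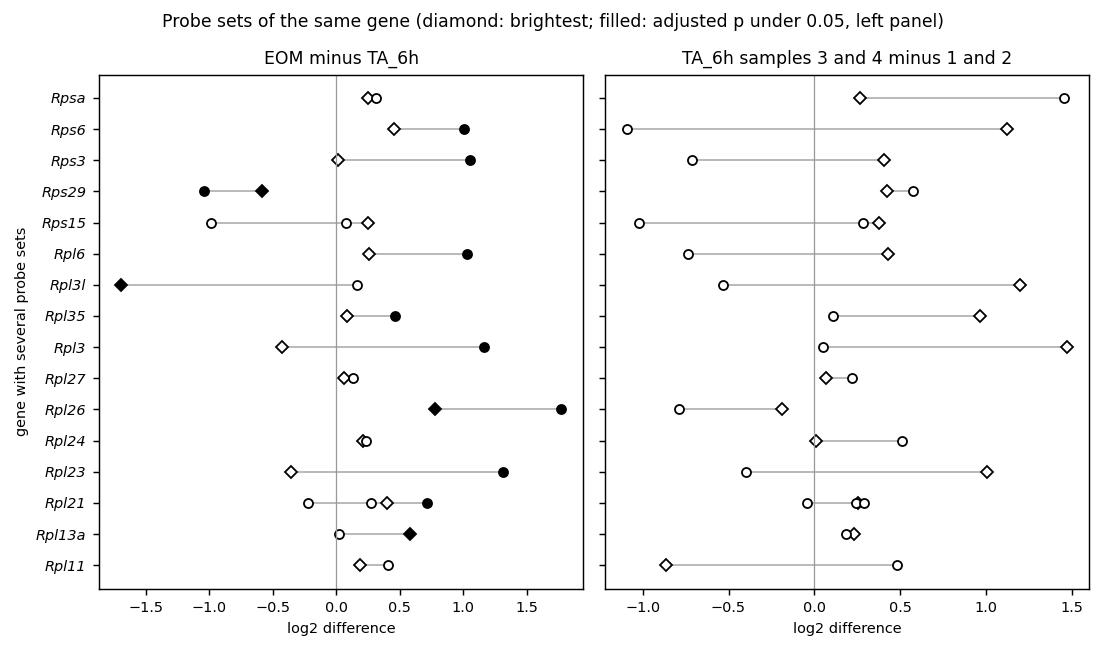
Log2 differences of each probe set of the 16 genes with several: EOM minus TA_6h on the left, and within TA_6h samples 3 and 4 minus samples 1 and 2 on the right; diamonds are the brightest probe set and filled marks on the left have an adjusted p under 0.05. Rpl3, Rpl3l and Rpl23 span 0 on the left, and Rps6, Rpl3l, Rpl23 and others span it on the right.

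The TA arrays differed among themselves in a control ratio. The signal of the middle beta-actin control divided by that of the 3′ control was 0.891 to 0.978 on the EOM arrays, 0.815 to 1.28 on 7 TA arrays, and 0.146 to 0.390 on 5 TA arrays: all 4 arrays of TA_6h samples 3 and 4, and TA_1h array 2b. A low value means less signal away from the 3′ end of the message. TA_6h samples 3 and 4 exceeded samples 1 and 2 for 30 of 39 members (median log2 difference 0.33, from -2.61 for Rps24 to 1.48 for Rpl3), against 56.1% of all genes (median 0.08). Both probe sets of 1 gene often moved apart: Rps6 by 1.12 and -1.09, Rpl3l by 1.20 and -0.53, Rpl23 by 1.01 and -0.40. Whether the control ratio has a part in these differences was not tested.

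Without those 5 arrays, 19 members were higher in EOM than in TA_6h and 1 was lower, with a median log2 difference of 0.44; over all genes 21.1% were higher and 24.1% lower. With those arrays alone as TA, 12 were higher and 6 lower, with a median of 0.12, against 22.8% and 26.6% of all genes. Rpl41, Rps10, Rpl26, Rpl39, Rps3a, Rpl14, Rpl35a and Rpl4 were called higher, and Rpl3l lower, in both of these fits. Rps9 (0.25, limma adjusted p = 0.11), Rpl5 and Rps29 (-0.37, limma adjusted p = 0.226) were not called without the 5 arrays. Rps6 was at 1.01 without them (limma, adjusted p = 0.000832) and at -0.11 with them alone (limma, adjusted p = 0.569). Rpl36 was at 0.78 (limma, adjusted p = 0.0197) and -0.08 (limma, adjusted p = 0.799) in the same order.

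**Figure D5:**
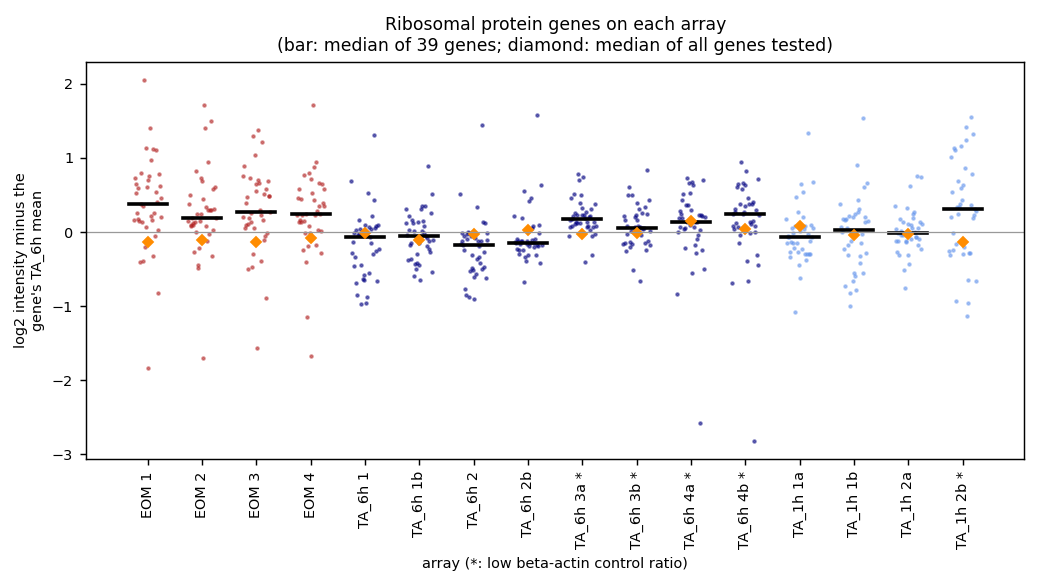
Log2 intensity of each of the 39 genes on each array, minus that gene's mean over the TA_6h arrays; black bars are the members' median, diamonds the median of all genes tested, and asterisks the arrays of low beta-actin control ratio. The members' median was 0.19 to 0.38 on the EOM arrays, 0.06 to 0.31 on the 5 marked TA arrays, and -0.17 to 0.03 on the other TA arrays.

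Between TA_6h and TA_1h, none of the 39 members was called by limma (0%), nor was any of the 4317 genes (0%). At an unadjusted p under 0.05, 2 members and 250 genes were past the threshold. The members' median log2 difference was 0.01, with 21 of 39 above 0. TA_1h has only 2 numbered samples, whose arrays 2a and 2b differed by a median of 0.73 on the log2 scale over the members, compared with 0.12 to 0.29 for the other array pairs.

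Other genes of protein synthesis did not share one direction. Their counts stand beside the 22.1% of all genes that were higher and the 26.1% that were lower (median -0.10), and no list was tested as a whole. Of 20 initiation factor genes tested, 7 were higher and 7 lower in EOM than in TA_6h (median log2 difference -0.24). Eif3m, a subunit of the scaffold factor eIF3, was higher by 2.32 ± 0.19 (limma, adjusted p = 1.11e-05), and Eif2s3, of the initiator tRNA carrier eIF2, by 1.90 ± 0.36 (limma, adjusted p = 0.00172). Eif5b, which helps join the subunits, was at -1.84 ± 0.28 (limma, adjusted p = 0.000503). Eif2b5, of the exchange factor for eIF2, was lower too, but all 4 EOM values were below the floor (TA_6h mean 345).

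Of 15 genes listed for ribosome assembly and ribosomal RNA synthesis, 2 were higher and 6 lower (13.3% and 40%, median -0.29). Nolc1, a nucleolar phosphoprotein, was at -1.94 ± 0.20 (limma, adjusted p = 3.87e-05), Mybbp1a, a regulator of ribosomal RNA synthesis, at -1.87 ± 0.47 (limma, adjusted p = 0.00924), and Dkc1, the pseudouridine synthase dyskerin, at -1.74 ± 0.46 (limma, adjusted p = 0.0116). Mrto4, an assembly factor of the stalk, was at -2.33 ± 0.42 (limma, adjusted p = 0.00143), with 2 EOM arrays below the floor.

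Of 6 genes listed with the aminoacyl-tRNA synthetases, none was higher and 3 were lower (median -1.26). Tars1 was at -1.79 ± 0.19 (limma, adjusted p = 4.37e-05), and Aimp2, a scaffold of the synthetase complex and not itself a synthetase, at -3.81 ± 0.39 (limma, adjusted p = 3.77e-05), with 1 EOM array below the floor. Farsa, for phenylalanine, had EOM values below 0 on all 4 arrays against a TA_6h mean of 531. Among 22 genes of the S6 kinase and mTOR pathway, 1 was higher and 5 lower (median -0.08): Pik3r1, a regulatory subunit of PI3 kinase, was the higher one, at 131.3 to 170.8 on the EOM arrays and below the floor on 6 of the 8 TA_6h arrays. Pdpk1, which activates S6 kinase, was at -1.01 ± 0.25 (limma, adjusted p = 0.00743). Irs2, an insulin receptor substrate, had EOM values below 0 on all 4 arrays, and the kinase gene Prkaa1 had EOM values at or near the floor.

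Mitochondrial ribosomal proteins, which serve a separate ribosome, gave 2 higher and 2 lower of 14 (median 0.09). Mrps6 was at 1.28 ± 0.16 (limma, adjusted p = 0.00013) and Mrpl52 at 0.71 ± 0.17 (limma, adjusted p = 0.00707), while Mrpl50 was at -1.17 ± 0.29 (limma, adjusted p = 0.00904) and Mrpl38 at -1.12 ± 0.35 (limma, adjusted p = 0.0235). The ribosome-associated Rack1 and Naca were at 0.06 and 0.08 and were not called.

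Markers of other cell types also differed between the muscles. Of all genes, 22.1% were higher and 26.1% lower in EOM than in TA_6h. Of 16 immune markers tested, 10 were higher and 2 lower in EOM than in TA_6h, and their summed intensity was 24329 to 32803 in EOM, 10065 to 16109 in TA_6h and 8001 to 11799 in TA_1h. Of 8 Schwann cell and nerve markers, 7 were higher (sums 11492 to 15463, 2479 to 3359 and 2798 to 3438). Fibroblast markers gave 6 higher and 1 lower of 12 (sums 79080 to 96632, 57360 to 93676 and 45455 to 60380). Endothelial markers (1 higher and 2 lower of 7), adipocyte markers (4 and 3 of 10), smooth muscle markers (2 and 3 of 6) and proliferation markers (1 and 2 of 7) were mixed. Markers at the floor on all EOM arrays numbered 1 of the 16 immune and none of the nerve or fibroblast markers. They also numbered 2 of the 7 endothelial, 3 of the 10 adipocyte, 1 of the 6 smooth muscle and 1 of the 7 proliferation markers. For such markers a lower value in EOM cannot be told apart from the way the signals were summarised. On the TA side, the nerve marker Sox10, called higher in EOM, was at the floor on all TA_6h and TA_1h arrays. Of 13 skeletal muscle markers, 1 was higher and 5 lower, none was at the floor on all arrays of a group, and the 3 extraocular myosins were all higher in EOM. The part of these cell types in the ribosomal protein differences was not tested, and in pieces of muscle fewer cells of a type and less RNA per cell cannot be told apart.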

How the data were processed

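The files give 1 intensity per probe set and array. The intensity values were deposited by the authors as array summaries, with background treatment and summary method not given in the sources used here. After trimming 2% of values at each end, every array's mean was 800. The arrays thus share that mean, but other scalings moved the results, as given above. Of 8799 probe sets, 59 array controls were left out. Gene names came from the platform's annotation table (7018 probe sets with 1 symbol, 308 with several, 1473 not listed); 57 of the 58 member probe sets matched a current RefSeq gene by number, with the same symbol.

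Values under the 25th percentile of all values (56.5) were set to it and log2 values taken. Probe sets above it on at least 4 arrays (7640) were fitted together. Within a group, arrays that share a number were averaged; joining TA_6h arrays 1 and 2 with 1b and 2b is an inference. Groups were compared with limma 3.58.1 (R 4.3.3; lmFit and eBayes, 7 residual degrees of freedom), with Benjamini-Hochberg adjustment over 7640 probe sets and a threshold of 0.05. Each gene is represented by its brightest probe set. The procedure was tested on simulated data.

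Samples were numbered alike across groups, but the correlation of same-numbered deviations was 0.02 to 0.10 (EOM and TA_6h), -0.04 to 0.04 (EOM and TA_1h) and -0.42 to 0.39 (TA_6h and TA_1h), so the numbers were not taken as pairs. The number of arrays limits the precision. Members described array by array were those called in the same direction against both TA groups, those called lower in either comparison, up to 4 further called genes with the largest differences from TA_6h, and the 3 with the smallest; Rpl21, Rpl3 and second probe sets were added after their values were seen. From each pathway list up to 4 called genes with the largest differences from TA_6h were named. The members and lists were chosen with earlier results of these data known. Start regions came from RefSeq (GRCr8). Figures were drawn with matplotlib 3.10.9.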

Additional observations from a re-analysis of the deposited data

Results flagged for a closer look

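Among 78 groups of 4 samples examined (39 genes in EOM and in TA_6h), 5 held a sample far from the other 3, where chance gives about 1 in 20. The share of the group's range taken by the gap is given for each, with log2 intensities. Rpl4 in TA_6h sample 4 was at 11.8, below the others at 12.43 to 12.45 (gap share 0.973). Rpl14 in the same sample was at 11.37, above the others at 11.06 to 11.11 (0.849), and Rplp0 in TA_6h sample 3 was at 14.28, above 14.04 to 14.07 (0.871). Both samples lie on arrays of low beta-actin control ratio, whose part was not tested. In EOM sample 1, Rpl27a was at 14.0, above 13.89 to 13.91 (0.87), and Rpl17 was at 9.41, above 8.94 to 9.01 (0.839).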

How the results depend on the processing

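Against TA_6h the count of members called was 13. It was 20 with quantile normalization (median log2 difference 0.47) and 8 with arrays scaled to the same median of values above the floor (-0.21). It was 20 without the 5 TA arrays whose beta-actin ratio was low (0.44) and 22 when every probe set was counted. A batch term marking those 5 arrays gave 20 (0.47), in a fit on the arrays themselves and not on averages by number. With only the low-ratio arrays as TA the median was 0.12. Against TA_1h, from 10, the count was 18 without the low-ratio arrays (15 higher and 3 lower, against 21.7% and 24.9% of all genes). It was 17 with the batch term (15 and 2, against 22.4% and 24.8%). With the replicate block it was 5 (3 and 2, against 15.9% and 17.3%). Counted over every probe set it was 16 (13 and 3, against 17.7% and 19.5% of all probe sets). The median was 0.40 with quantile normalization, -0.21 with the median scaling and 0.085 with only the low-ratio arrays. Between TA_6h and TA_1h with only the low-ratio arrays, the members' median was -0.11 and that of all genes 0.14. In that fit TA_1h is 1 array and is assumed to vary like the other groups. Against TA_6h the replicate block gave 11 calls and the same median, 0.26. Over all genes it gave 21.4% higher and 25.2% lower, and the batch term gave 23% and 26.9%. Of all probe sets counted singly, 21.9% were higher and 25.3% lower than in TA_6h. Leaving out 1 sample gave 9 to 13 calls and medians of 0.23 to 0.34 against TA_6h. Of all genes, 19.2% to 21.5% were then higher and 22.6% to 25.6% lower. Against TA_1h the medians were 0.18 to 0.28. With both TA_1h samples kept, calls ran from 5 higher and 2 lower (without EOM sample 3) to 9 and 2 (without TA_6h sample 4). All genes gave 16.4% and 17%, then 19.2% and 20.9%, in these fits. Between the TA groups, medians were -0.10 to 0.05, with 0 calls where both TA_1h samples were kept. Signs turned with a call for Rpl23 against TA_6h (0.48, mean of its probe sets), Rpl22 against TA_6h (-0.36) and Rpl3 (-0.67) and Rpl17 (-0.81) against TA_1h with only the low-ratio arrays, and Rps16 against TA_6h (0.39, quantile normalization); the cause was not tested. Scaling all values to a common median, chosen after seeing the data, gave 11 higher and 1 lower against TA_6h (median 0.37). Of all genes, 24.2% were higher and 22.2% lower with that scaling. No limit from counting depth applies to arrays; Rpl5 was under the floor on 2 arrays, and Rpl30 and Rps24 had the largest spread within groups (residual SD 1.00 and 1.32).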

Other observations

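The residual SD of the log2 values within groups had a median of 0.23 over the 39 members and 0.36 over all 4317 genes. Genes of like brightness were not compared: 37 of the 39 members and 2530 of the 4317 genes were above the floor on all arrays. Rps24, a small-subunit protein, was at 383.3 to 1116 on the EOM arrays and at 30.3 to 1186 on the TA_6h arrays. Rpl30, of the large subunit, was at 140.2 to 1286 on the EOM arrays.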
